A study of Mus musculus with 4 samples.

Results

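The genes described here are 112 mouse transcription factor genes of the HOX, GATA, T-box, PAX, NKX, sine oculis homeobox, DLX, MSX and forkhead (FOX A to H) families, of 55335 annotated genes in all. They were chosen by symbol alone, with no measured value, and comprised 39 HOX, 16 FOX, 14 NKX, 13 TBX, 9 PAX, 6 GATA, 6 sine oculis, 6 DLX and 3 MSX genes. All were annotated as protein-coding. RNA of oocytes from mice of the C57BL/6 strain was amplified by Smart-Seq2, which copies full-length cDNA from very little RNA, and sequenced in 4 libraries. The control group and the mutant group had 2 libraries each, and the sample descriptions of both carry the prefix MII. In the mice of the series 1 base of *Ezh2* was changed where exon 3 can be spliced in alternative ways, giving a long and a short version, and the label of the mutant libraries does not give the version. No promoter, Cre line, age or number of animals is stated in the labels. Nothing says that libraries of a group came from separate mice, so each p-value reflects the spread among these 4 libraries alone.

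HOX proteins give cells their position along the body axis, and their genes lie in 4 clusters in the order in which they act along that axis. GATA, T-box, PAX, NKX, sine oculis, DLX, MSX and FOX proteins bind DNA through other domains or diverged homeodomains and direct the formation of blood, heart, limbs, nerves, kidney and gut. In embryonic stem cells and many tissues, most of these genes are kept inactive by Polycomb repressive complexes, of which EZH2 is the enzyme that methylates lysine 27 of histone H3. A fully grown oocyte makes little new RNA and lives on stored transcripts.

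The libraries held between 25090032 and 26617816 counts. The 16 oocyte markers, such as *Gdf9* and *Bmp15*, were all found in every library, and 15 of them lay at 1 CPM or more in all 4 (CPM, counts scaled to a common library size). Each mutant library also stood apart in markers of another cell type. The summed level of 19 cumulus and granulosa genes was 403 CPM in mutant 1 against 46.1 to 75.7 CPM in the other libraries, with 19 of 19 found there and 9 to 13 elsewhere. Outside mutant 1 most of this sum was *Cyp19a1* (34.2, 42.5 and 23.6 CPM in control 1, control 2 and mutant 2) and *Nr5a2* (9.99, 11.4 and 7.06 CPM), and *Cyp19a1* was lowest in mutant 1 at 16.4 CPM. Control 1 also differed from control 2, with *Gja1* at 271 against 0 counts and *Inhba* at 223 against 5 counts. The summed level of 18 leukocyte genes was 214 CPM in mutant 2 against 17.4 to 20.3 CPM, with 18 of 18 found there and 6 to 11 elsewhere. The T cell genes *Cd3e*, *Cd3d*, *Cd3g* and *Cd8a* of this list had only 1, 7, 13 and 4 counts in mutant 2. *Cd4* had 13 counts there against 17 and 28 in controls, while *Lck* had 341 and *Cd2* 261. *Cd69* was at 14.5 CPM in mutant 2 and 13.9 CPM in control 1. The granulosa genes *Inhbb*, *Foxl2*, *Amh* and *Amhr2* were at 0 outside mutant 1, where they had 74, 1, 13 and 11 counts. *Foxl2* was thus nearly absent there as well. The leukocyte genes *Coro1a*, *Nkg7* and *Rac2* were at 0 outside mutant 2. Stromal and endothelial markers summed to 40.0 to 53.5 CPM, mostly *Pecam1* and *Tek*. Within that list the collagen genes stood in mutant 2, with *Col1a1* at 2, 0, 1 and 56 counts in control 1, control 2, mutant 1 and mutant 2, *Col3a1* at 0, 0, 2 and 43 and *Col1a2* at 0, 0, 0 and 22, while *Cdh5* had 61 counts in mutant 1 only. In pooled RNA, fewer cells of a type and less RNA per cell cannot be told apart.

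Most of the 112 regulators were absent or nearly so. A gene was called silent with 0 counts in all 4 libraries, trace with some counts but under 1 CPM in every library, variable with 1 CPM or more in 1 to 3 libraries, and expressed with 1 CPM or more in all 4. By this division 48 genes were silent, 44 trace, 9 variable and 11 expressed. Silent genes thus made up 42.9% of the regulators, against 22.4% of the 21899 protein-coding genes measured. Expressed genes made up 9.82% of the regulators, against 41.7% of protein-coding genes. These shares are a description without a test. A count of 0 over the 4 libraries allows a level of up to 0.0286 CPM (3 counts, counting error only, since amplified reads without molecular identifiers are not independent molecules).

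**Figure D1:**
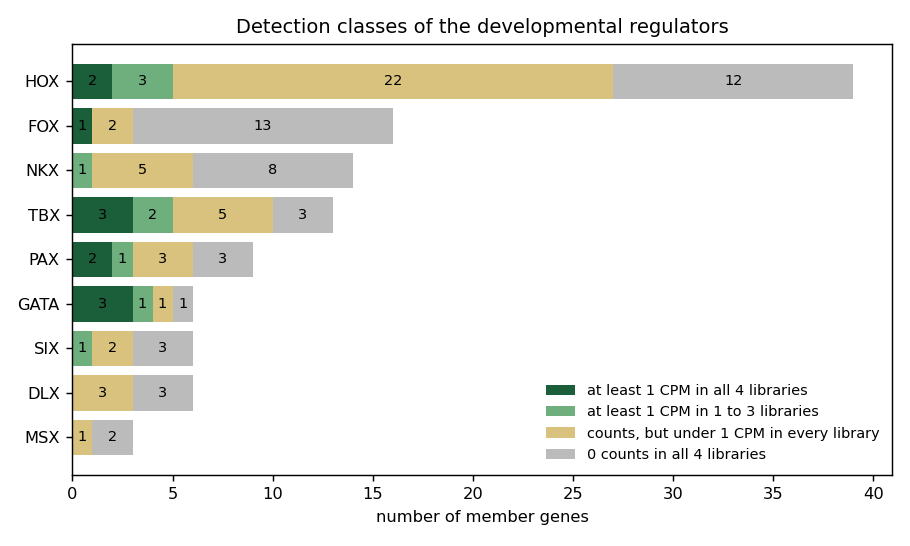
Number of genes (x axis) of each family (y axis) in the 4 detection classes, with the number written in each bar segment. The expressed genes lie in 5 of the families, 3 each in GATA and TBX, 2 each in HOX and PAX and 1 in FOX, while 13 of 16 FOX genes had no counts.

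The families differed in how many of their genes were silent. Of the FOX genes 81.2% were silent, among them the endoderm factor *Foxa2*, the neural crest factor *Foxd3* and the mesoderm factors *Foxf1* and *Foxc2*. The silent NKX genes numbered 8 of 14 and included the cardiac factor *Nkx2-5* and the thyroid and lung factor *Nkx2-1*. All DLX and MSX genes, which pattern limbs and the face, were silent or trace, and *Msx2* in the trace class had 10 and 11 counts in control libraries and 0 in both mutants. The silent sine oculis genes were *Six2*, *Six3* and *Six6*, and the silent PAX genes *Pax1*, *Pax4* and *Pax7*. *Tbx1*, *Tbx2*, *Tbx22* and *Gata5* completed the non-HOX silent genes together with *Msx1*, *Msx3*, *Dlx2*, *Dlx3* and *Dlx6*. Among HOX genes 12 of 39 were silent, such as *Hoxa2*, *Hoxb9*, *Hoxc10* and *Hoxd4*. By matrix counts GATA was the family with the smallest share of silent genes, 1 of 6, followed by TBX at 23.1%. This order rests on *Gata1*, which had matrix counts but no RSEM counts.

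The trace class held very few reads per gene. Of its 44 genes 22 had counts in 1 library only, 12 had a single count in all, 19 had 3 counts or fewer in all, and the largest sum was 60 counts, for *Hoxc13*. At the upper border of this class, *Hoxa10* reached 0.966 CPM in control 1 and *Gata2* 0.977 CPM in mutant 2. At the lower border of the expressed class, *Tbx3* had its lowest value at 1.05 CPM in mutant 2.

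The deposited estimates of the RSEM program, which divides reads among transcripts, gave the same silent genes and more. All 48 had an RSEM count of 0, and 13 further genes with matrix counts were at 0 in all 4 RSEM tables. The largest of these was *Gata1*, the erythroid factor, with 31 and 35 matrix counts in control against 41 and 24 in mutant libraries. *Gata1* therefore has matrix counts but no RSEM counts, and its presence is uncertain. *Nkx6-2*, a factor of the ventral nervous system, had 44, 53, 44 and 25 matrix counts in control 1, control 2, mutant 1 and mutant 2, and RSEM counts of 2, 18, 0 and 1. It overlaps *Inpp5a* on the opposite strand, which had 375 to 472 counts, and the sources used here do not say whether reads were counted by strand.

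Compared per transcript length, 3 genes led. In TPM (the length-scaled value the authors deposited) *Hoxa7* was highest, at 80.85, 90.25, 106.9 and 63.16 in control 1, control 2, mutant 1 and mutant 2. *Gata3* followed at 44.73 to 67.98 TPM and *Tbx4* at 25.46 to 43.53 TPM. The ranges of *Hoxa7* and *Gata3* overlapped, while that of *Tbx4* lay just under that of *Gata3*. Of all annotated genes 52.3% had no count in any library. By mean TPM *Hoxa7* stood among the top 3.05% of all annotated genes, *Gata3* among the top 4.26% and *Tbx4* among the top 5.54%. Then came *Gata4* at 7.25 to 18.47 TPM and *Tbx19* at 8.66 to 16.36 TPM, whose ranges overlapped. *Gata6*, *Pax2* and *Hoxd13* had means of 3.03, 2.01 and 1.82 TPM, and the ranges of all 3 overlapped. The TPM of *Hoxa7* rests on a short effective length of 1011 bases on average in the RSEM tables, against 2900 bases for *Gata3*.

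In summed CPM the 112 genes came to 278 and 340 in controls 1 and 2 and to 293 and 310 in mutants 1 and 2. *Gata3*, *Tbx4* and *Hoxa7* supplied 72.9% to 78.7% of that sum in each library, and the 11 expressed genes together 94.8% to 96.5%. Counts were found for 40, 35, 37 and 40 of the 112 genes in the same order of libraries. The number of regulators found, and their summed level, thus overlapped between the groups. Over all genes the mutants had more genes with a count, 21760 and 21485 against 20053 and 19948.

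**Figure D2:**
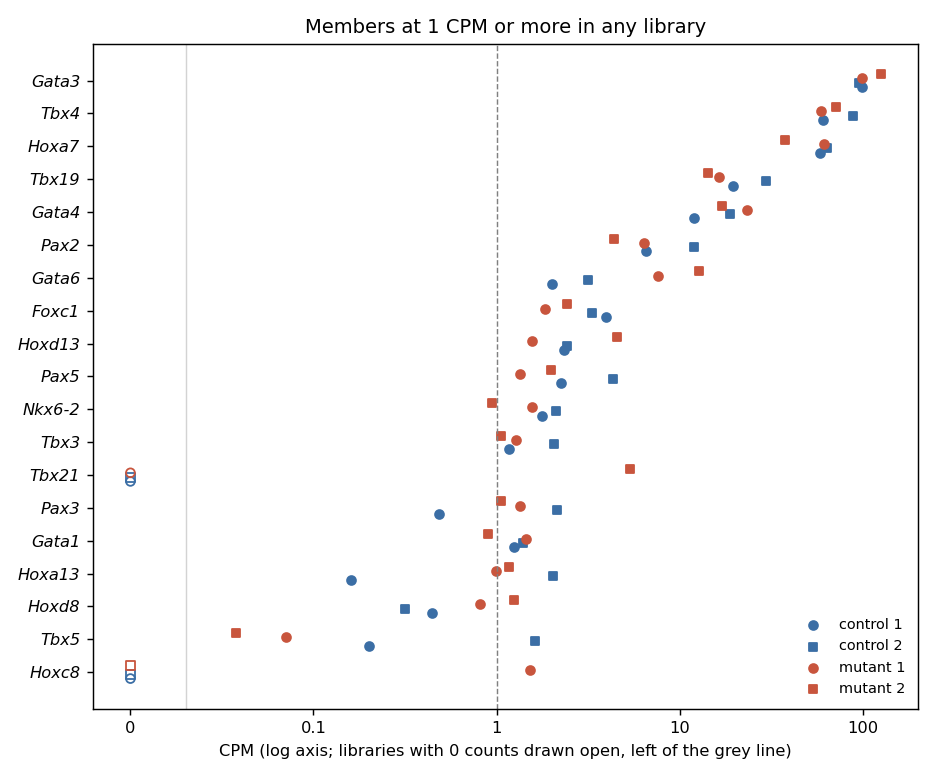
CPM (x axis, log scale) in each library of 19 genes that reached 1 CPM in any library (y axis, ordered by total count). Circles and squares are replicates 1 and 2, blue is control and red is mutant, open symbols are libraries with 0 counts, and the dashed line marks 1 CPM. *Gata3*, *Tbx4* and *Hoxa7* lie well to the right of the other genes in all 4 libraries, and *Tbx21* and *Hoxc8* have counts in 1 library only.

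*Hoxa7* was the one abundant gene of the HOX clusters. Its *Hoxa* cluster lies on chromosome 6 (mm10, minus strand) and held 6050 counts over the 4 libraries, of which *Hoxa7* supplied 96.0%. The gene itself (52214491 to 52221854) had 1455 and 1605 counts in control against 1743 and 1002 in mutant libraries. Its neighbours on either side were nearly empty. *Hoxa6* had 0, 4, 11 and 0 counts in control 1, control 2, mutant 1 and mutant 2, and *Hoxa9* had 0, 1, 0 and 0. The opposite-strand transcript *Hoxaas3*, which overlaps the 3′ end of *Hoxa7*, had 154, 128, 109 and 73 counts.

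The 250 bases before the RefSeq start of *Hoxa7* and of these neighbours are shown to set an abundant gene beside near-silent ones of the same cluster. They are written 5′ to 3′ on the minus strand (RefSeq, GRCm38.p6), with each CG dinucleotide in capitals.
Hoxa6, chr6:52208673-52208922: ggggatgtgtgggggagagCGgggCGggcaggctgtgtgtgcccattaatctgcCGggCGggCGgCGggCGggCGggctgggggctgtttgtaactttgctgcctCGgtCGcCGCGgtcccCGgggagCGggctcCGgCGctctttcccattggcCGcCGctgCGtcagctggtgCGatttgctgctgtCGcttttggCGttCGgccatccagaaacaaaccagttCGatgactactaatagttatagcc
Hoxa7, chr6:52218574-52218823: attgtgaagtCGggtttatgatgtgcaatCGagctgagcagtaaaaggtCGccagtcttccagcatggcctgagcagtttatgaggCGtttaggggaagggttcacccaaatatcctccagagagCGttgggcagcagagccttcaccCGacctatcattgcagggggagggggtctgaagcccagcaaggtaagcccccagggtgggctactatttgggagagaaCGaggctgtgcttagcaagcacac
Hoxa9, chr6:52227371-52227620: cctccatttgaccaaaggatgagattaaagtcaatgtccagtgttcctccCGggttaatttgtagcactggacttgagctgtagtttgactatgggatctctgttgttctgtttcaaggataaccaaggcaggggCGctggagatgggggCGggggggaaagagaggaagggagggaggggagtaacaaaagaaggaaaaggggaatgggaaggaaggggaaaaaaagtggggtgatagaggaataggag
These windows held 24 CG in *Hoxa6*, 7 in *Hoxa7* and 3 in *Hoxa9*. Among 27025 promoters of the same length 91.7% hold at least 1 CG, 46.5% hold as many as *Hoxa7* or more and 11.7% as many as *Hoxa6* or more. *Hoxa7* has 5 annotated transcripts with different starts in GENCODE, the nearest 138 bases from the RefSeq start. *Hoxa9* also has 5 annotated transcripts. The windows of *Hoxa7* and *Hoxa9* lie within the annotated genes. Their RefSeq starts are 3281 and 3719 bases from the 5′ end of the gene in GENCODE, against 50 bases for *Hoxa6*. Which starts these oocytes used was not measured. Promoter entries matched 73 of the 112 genes (65.2%), too few for a comparison of CG content between the classes.

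After *Hoxa7* the HOX genes with most counts over the 4 libraries were *Hoxd13* with 284, *Hoxa13* with 114, *Hoxd8* with 75, *Hoxc13* with 60 and *Hoxa10* with 59. *Hoxd13*, which patterns digits and the genital tract, had 58 and 61 counts in control against 44 and 121 in mutant libraries. *Hoxa13* had 4, 51, 28 and 31 counts and *Hoxc13* 8, 16, 14 and 22 counts in control 1, control 2, mutant 1 and mutant 2. *Hoxd8* had 11 and 8 counts in control against 23 and 33 in mutant libraries, which do not overlap. *Hoxb13* and *Hoxb8* were silent. The 10 genes of the *Hoxb* cluster held 17 counts in all, 10 of them in control 1.

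**Figure D3:**
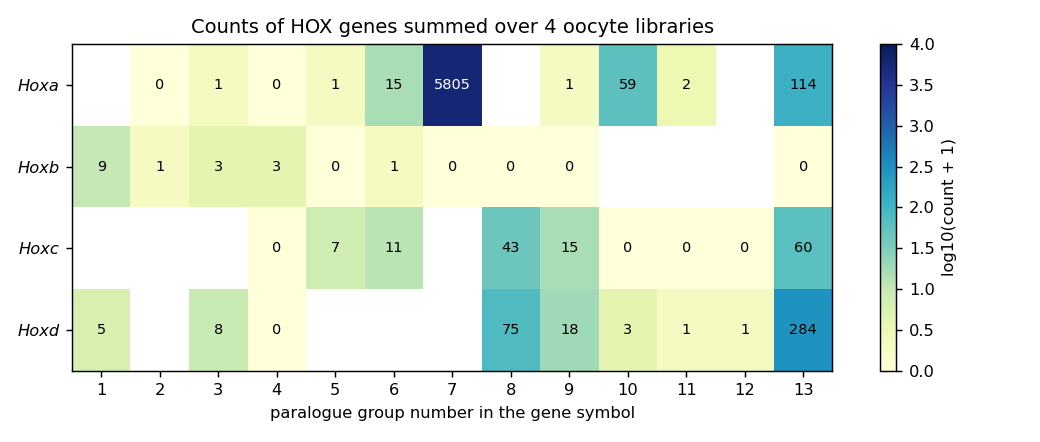
Counts of 38 HOX genes summed over the 4 libraries, by cluster (rows) and by the number in the gene symbol (columns). Colour is log10 of the count plus 1 on a raw count scale that is not divided by length, and white fields hold no gene shown here. *Hoxa7* has 5805 counts, and the next highest is *Hoxd13* with 284.

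Mutant and control libraries were compared to ask whether the level of these regulators differed with the *Ezh2* splice site change. Of the 112 genes 21 were abundant enough to test, a filter that a gene can also pass through 1 group alone. Of these 21, 0 passed (edgeR quasi-likelihood test, p adjusted by Benjamini-Hochberg over all 15493 genes tested, threshold 0.05), where 3.75% of all tested genes did, 1.77% higher and 1.98% lower in the mutants. At an unadjusted p under 0.05 the count was 2, *Gata6* and *Tbx19*, against 23% of all tested genes. Under limma trend it was 0 at the adjusted threshold as well, and under DESeq2 it was 1, *Gata6*, where 11.6% of all genes passed. It was also 1, *Gata6*, with low genes kept in (5.01% of all genes passed) and with the replicate number as a block (7.83%), and 2, *Gata6* and *Tbx21*, without mutant 1 (10.2%). The median log2 fold change of the 21 was -0.30, with 6 positive and 15 negative values, beside a median of 0.05 over all tested genes. In CPM the groups did not overlap for 10 of the 21, 3 higher and 7 lower in the mutants, where 54.6% of all tested genes did not overlap. For the 19 of them plotted by fold change, standard errors of the log2 fold changes ran from 0.17 to 1.03.

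**Figure D4:**
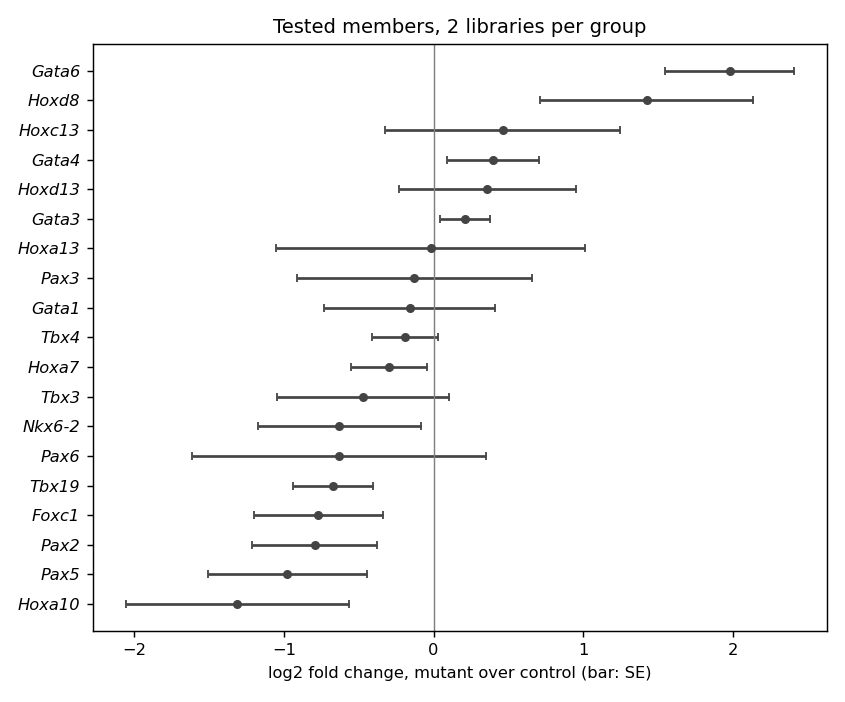
Log2 fold change of mutant over control (x axis, with its SE) for 19 of the tested regulators (y axis). Among those plotted, *Gata6* has the highest value at 1.98 and *Hoxa10* the lowest at -1.31, and the bars of the genes with few counts are the widest.

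*Gata6*, which with *Gata4* directs endoderm, heart and ovarian somatic cell genes, came closest to the threshold. It was at 2.01 and 3.17 CPM in controls 1 and 2 and at 7.67 and 12.8 CPM in mutants 1 and 2. Both mutant libraries lay above both controls. The log2 fold change was 1.98 (SE 0.43, a 3.94-fold difference), with an adjusted p of 0.0606 by edgeR. It passed with DESeq2 (adjusted p = 0.00195), and also when low genes were kept in (adjusted p = 0.0218). It did not pass with RSEM counts (adjusted p = 0.0803). Its log2 fold change was 1.68 without control 1, 2.30 without control 2, 2.29 without mutant 1 and 1.55 without mutant 2. Among these fits it passed only the one without mutant 1. Few of all genes passed with a control left out, so failing there cannot decide the case of *Gata6*. Its level was highest in mutant 2, where the leukocyte markers and the collagen genes were highest and the cumulus and granulosa markers summed to 46.1 CPM, with 13 of 19 found. It was also above both controls in mutant 1, where the granulosa markers summed to 403 CPM and the leukocyte markers were at 20.3 CPM. The part of other cells in this value was not tested.

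The other GATA genes showed smaller differences. *Gata3*, a factor of T cells and of the trophoblast, was at 99.3 and 95.7 CPM in control libraries, against 99.8 and 126 CPM in mutant ones. Mutant 1 lay within 1 CPM of control 1, and the log2 fold change of 0.21 (SE 0.17) did not pass (edgeR adjusted p = 0.505). *Gata4* was at 11.9 and 18.8 CPM in control libraries, against 23.4 and 17.0 CPM in mutant ones, so the groups overlapped (log2 fold change 0.40, SE 0.31, edgeR adjusted p = 0.498). Its highest value lay in mutant 1, where the cumulus and granulosa markers summed to 403 CPM. Its lowest lay in control 1, where they summed to 75.7 CPM, against 56.2 CPM in control 2 and 46.1 CPM in mutant 2. The part of other cells in *Gata4* was not tested. *Gata2*, a blood stem cell factor that was not tested, had 4 and 7 counts in control libraries, 0 in mutant 1 and 26 in mutant 2.

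Of the T-box genes, *Tbx4*, a hindlimb factor (chromosome 11, 85886422 to 85916097), was at 61.1 and 88.3 CPM in control libraries, against 59.5 and 71.6 CPM in mutant ones. The groups overlapped, and the spread between the controls was larger than the difference of the groups (log2 fold change -0.19, SE 0.22, edgeR adjusted p = 0.666). *Tbx19*, a pituitary factor, was at 19.5 and 29.5 CPM in control libraries, against 16.5 and 14.2 CPM in mutant ones. In TPM it was at 9.92, 16.36, 10.51 and 8.66 in control 1, control 2, mutant 1 and mutant 2. There mutant 1 lay above control 1. In CPM both mutants lay below both controls, and the log2 fold change was -0.67 (SE 0.27, edgeR adjusted p = 0.201). It stayed above the threshold in all 9 alternative analyses, with adjusted p between 0.118 and 0.587. *Tbx3*, which acts in limb and mammary gland, was at 1.17 and 2.06 CPM in control libraries, against 1.28 and 1.05 CPM in mutant ones. It overlaps the opposite-strand transcript *Tbx3os1*, which was more abundant at 23.9, 27.8, 18.6 and 15.1 CPM, and reads in the shared stretch (119670669 to 119671365 on chromosome 5, at the 5′ end of *Tbx3*) cannot be assigned without strand. RSEM gave *Tbx3* 24, 48, 28 and 22 counts, near the 29, 52, 36 and 28 of the matrix. *Tbx5*, the forelimb and heart factor, had 5, 41, 2 and 1 counts, almost all of them in control 2.

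In CPM *Pax2* and *Pax5* lay lower in both mutants than in both controls, and they did not pass. *Pax2*, a factor of kidney and genital ducts, was at 6.52 and 12.1 CPM in control libraries, against 6.36 and 4.36 CPM in mutant ones (log2 fold change -0.79, SE 0.42, edgeR adjusted p = 0.310). Control 1 and mutant 1 were nearly level, and the antisense gene *Gm20395* within it had 47 to 99 counts. In TPM *Pax2* was at 1.73 and 3.28 in control libraries, against 1.98 and 1.05 in mutant ones, so mutant 1 lay above control 1. *Pax5*, the B cell factor, was at 2.26 and 4.33 CPM in control libraries, against 1.35 and 1.99 CPM in mutant ones (log2 fold change -0.98, SE 0.53, edgeR adjusted p = 0.326). *Pax3*, of neural crest and muscle, had 12, 54, 38 and 28 counts, with its lowest and its highest value both in the controls.

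Among the HOX genes *Hoxa7* was at 58.6 and 63.7 CPM in control libraries, against 61.9 and 37.6 CPM in mutant ones (log2 fold change -0.30, SE 0.25, edgeR adjusted p = 0.540). Mutant 1 lay between the controls, so the lower group mean came from mutant 2, and without mutant 2 the log2 fold change was 0.008. *Hoxd8* had the largest positive value of the HOX genes, 1.42 (SE 0.71, edgeR adjusted p = 0.289), at 0.443 and 0.317 CPM in controls and 0.817 and 1.24 CPM in mutants. *Hoxd13* had a log2 fold change of 0.36 (SE 0.59, edgeR adjusted p = 0.772), which was -0.61 without mutant 2. The only expressed FOX gene, *Foxc1*, a factor of mesenchyme and of the eye, was at 3.99 and 3.33 CPM in control libraries, against 1.85 and 2.44 CPM in mutant ones (log2 fold change -0.77, SE 0.43, edgeR adjusted p = 0.339).

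Each library held regulators found in no other, 5 and 6 in controls 1 and 2 and 6 and 7 in mutants 1 and 2. With 3 counts or more these numbered 1, 1, 6 and 1, and the control ones were *Tbx18* with 16 counts in control 1 and *Foxa1* with 3 in control 2. Over all genes, at 1 count or more, 727 and 792 were found in 1 control library alone, against 1654 and 1559 in mutants 1 and 2. The number over all genes at 3 counts or more was not computed, so the 6 in mutant 1 has no share to be set beside. The regulators named here were picked after their values were seen. Mutant 1 had 7 counts of *Hoxc5*, 7 of *Hoxc6*, 43 of *Hoxc8*, 15 of *Hoxc9* and 8 of *Hoxd3*. In the other 3 libraries *Hoxc5*, *Hoxc8*, *Hoxc9* and *Hoxd3* were at 0, and *Hoxc6* had 2, 0 and 2 counts. *Hoxc6* is thus not among the 6, which also hold regulators not named here. The 4 *Hoxc* genes are neighbours on chromosome 15, and the annotated span of *Hoxc5* (102967443 to 103017429) covers the other 3. Reads could therefore be divided between them in different ways, and RSEM gave *Hoxc8* 15 counts in mutant 1. Mutant 1 was the library with the highest cumulus and granulosa markers. Their part in these counts was not tested.

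*Tbx21*, which encodes T-bet, the defining factor of type 1 helper T cells and natural killer cells, had 142 counts in mutant 2 (5.33 CPM) and 0 in the other 3 libraries. RSEM gave 139 counts in the same library. It was the only one of the 7 regulators confined to mutant 2 in the matrix with 3 counts or more. The leukocyte list also summed highest in that library, with *Ptprc* at 43.2 CPM and *Coro1a* at 64.3 CPM in mutant 2 against 0.107 and 0 CPM in mutant 1 and 0 in both controls. Its T cell genes *Cd3e*, *Cd3d* and *Cd3g* had only 1, 7 and 13 counts in mutant 2, and *Cd4* was lower there than in both controls. Other genes of that list were highest in mutant 2. *Nkg7* had 244 counts there and 0 in the other libraries. *Klrb1c* had 129 there, against 23, 4 and 14 in control 1, control 2 and mutant 1. Of the 18 leukocyte genes *Cd74* and *Lyz2* passed, and both were higher in mutant 1 (2.70 and 8.03 CPM) than in mutant 2 (1.01 and 3.83 CPM). Neither passed without control 1 or without control 2, where few of all genes passed, so this cannot decide their calls. The part of leukocytes in the *Tbx21* counts was not tested. *Tbx21* was not tested over the 4 libraries. Without mutant 1 it was tested and passed, a comparison of 1 mutant library with the controls that takes the lone library to vary like the others.

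**Figure D5:**
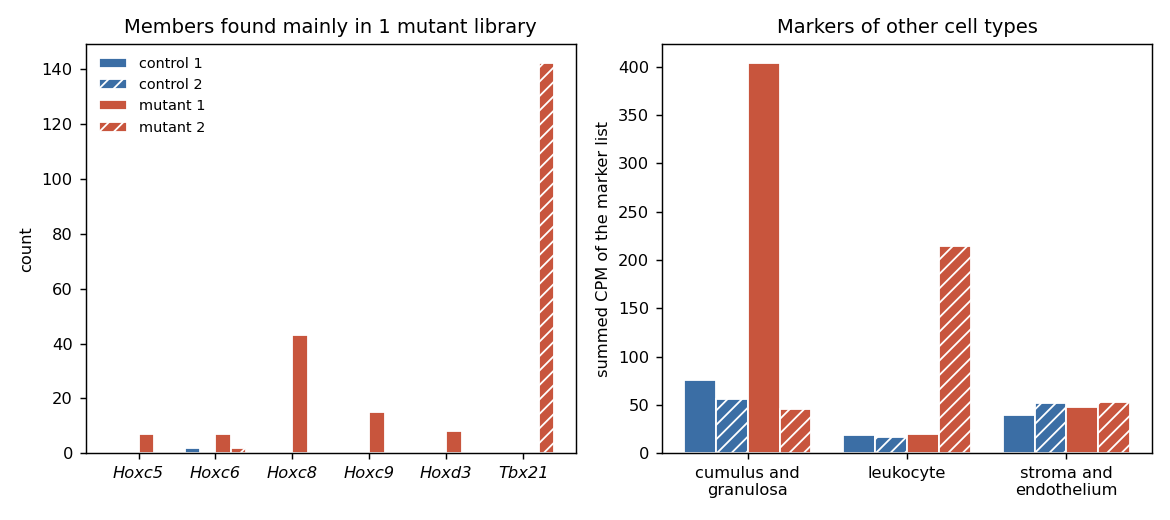
Left, counts of 6 regulators in each library. Right, summed CPM of 3 marker lists in the same libraries, with controls in blue, mutants in red and replicate 2 hatched. The *Hoxc* and *Hoxd3* counts stand in mutant 1, which also has 403 CPM of cumulus and granulosa markers, and *Tbx21* stands in mutant 2, which has 214 CPM of leukocyte markers.

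The lists drawn up around binding partners of these regulators ranged from very abundant genes to ones with a few counts in 1 library. Of 11 TALE homeobox genes, a class that includes HOX partners, 6 lay at 1 CPM or more in all 4 libraries. Of the 9 tested, 1 rose and 0 fell (list median log2 fold change 1.12), where 1.77% of all tested genes rose and 1.98% fell. *Meis2* was by far the most abundant, at 1894 and 1821 CPM in controls and 1128 and 1273 CPM in mutants, and did not pass (log2 fold change -0.63, edgeR adjusted p = 0.0755). *Pknox2* rose from 0 counts in both controls to 101 and 83 counts in the mutants. This made it at least 55.9-fold higher (against 3 counts over the controls, edgeR adjusted p = 0.0157). It did not pass without control 1 or without control 2, where few of all genes passed, so this cannot decide the call. None of 4 tested EYA and DACH genes, partners of sine oculis proteins, passed (median -0.36). *Eya1* was at 42.1 and 39.5 CPM in controls and 46.0 and 59.1 CPM in mutants, and *Eya3* at 48.2 and 61.7 against 36.8 and 29.9 CPM. *Eya3* (log2 fold change -0.72, edgeR adjusted p = 0.103) passed with DESeq2 (adjusted p = 0.0204) and without mutant 1 (adjusted p = 0.0298).

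None of 5 tested GATA partner genes passed (median 0.45). The most abundant was *Lmo1*, at 272 and 281 CPM in controls and 240 and 225 CPM in mutants. *Ldb2*, which encodes a LIM domain binding protein, was at 32.3 and 26.5 CPM in controls and 10.01 and 14.2 CPM in mutants (log2 fold change -1.28, SE 0.26, edgeR adjusted p = 0.0533). It passed with DESeq2 (adjusted p = 0.000948) and limma trend (adjusted p = 0.0434), and did not pass with RSEM counts (edgeR adjusted p = 0.0585). Its log2 fold change was -1.14 without control 1 and -1.46 without control 2, where it did not pass and few of all genes did. None of 5 tested Groucho co-repressor genes passed (median 0.24), of which *Tle6*, a gene of the subcortical maternal complex, was most abundant at 226 to 369 CPM, followed by *Tle4*.

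A list of 84 developmental factors of other families was mostly low as well. Of these 40 were silent and 14 at 1 CPM or more in all 4 libraries. Among 20 tested 1 rose and 0 fell (median 0.33), where 1.77% of all tested genes rose and 1.98% fell. The gene that rose was *Foxp2*, a forkhead gene outside the FOX A to H range, from 22.9 and 30.7 CPM in controls to 70.4 and 70.3 CPM in mutants (log2 fold change 1.39, SE 0.20, edgeR adjusted p = 0.0226). The log2 fold change of *Foxp2* was 1.19 without control 1 and 1.57 without control 2, where it did not pass. Few of all genes passed with a control left out, so this failure cannot decide the call. Among Polycomb genes, 1 of 11 tested genes of complex 2 fell and 1 of 14 of complex 1 rose, beside the same shares over all tested genes. The lists were not tested as sets. The gene that fell was *Aebp2*, an accessory subunit (log2 fold change -0.89, edgeR adjusted p = 0.0458), and the one that rose was *Pcgf3* (log2 fold change 1.08, edgeR adjusted p = 0.0310). Both lost their call without control 1, without control 2 and without mutant 2. The losses with a control left out cannot decide these calls either, since few of all genes passed there.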

How the data were processed

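Raw counts by gene were deposited by the authors in 1 matrix, with a separate table for each library whose form, per the file headers, is that of RSEM gene results. It holds expected counts, TPM and FPKM deposited by the authors and lengths in bases; FPKM was deposited but not analysed here. The submitters' processing notes name cutadapt 1.16, STAR, RSEM and the build mm10. No source used here gives their settings, the counter behind the matrix or the use of strand. Coordinates are from GENCODE M21, which holds 55154 of the 55335 gene IDs.

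The test on matrix counts was that of edgeR 4.0.16 under R 4.3.3 (TMM, filterByExpr, glmQLFTest, genotype as the only term) over all genes, with 2 residual degrees of freedom. CPM uses the TMM-scaled totals of tested genes. The SE is the log2 fold change divided by the square root of F. Tested on simulated data for mutant against control (15714 genes), it recovered 4% of changes of 2-fold, 46% at 4-fold, 90% at 8-fold and 86% at 16-fold. These are shares of 50 changed genes at each fold, of which 46, 46, 49 and 43 passed the count filter. At 16-fold all 43 tested were recovered. Every gene was simulated with the same dispersion and without other cell types in single libraries, which differs from these data.

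The regulators, gene lists and alternatives were chosen with earlier results of these data known. Named were the expressed genes, the variable genes with the 8 largest tested changes or among the 4 highest of a library, and of each other list the genes that passed or the 2 most abundant; further genes were picked after their values were seen. Some regulators are counted in the totals but not reported here by name. Of the list names, only *Ezhip* matched no gene. Alternatives were DESeq2 1.42.0, limma 3.58.1 trend (prior count 2), no filter, RSEM expected counts rounded to whole numbers, a replicate block and each library left out. On the marker lists, *Cd74* and *Lyz2* (leukocyte) rose by edgeR and 0 oocyte, granulosa or stromal genes passed it; other settings differ for *Cyp19a1* and *Gja1*.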

Additional observations from a re-analysis of the deposited data

How the results depend on the processing

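The number of all genes past the threshold was 581 by edgeR, 1942 with DESeq2, 1322 with no filter on low counts and 1213 with the replicate block, and ran from 22 (without control 1) to 1688 (without mutant 1) with a library left out. The number of regulators past it was 0, and 1 (*Gata6*) with DESeq2, with no filter and with the replicate block, and ran from 0 to 2 (*Gata6* and *Tbx21*, without mutant 1) with a library left out. The titles number the libraries 1 and 2 in both groups but give no shared animal or day, and the differences within the groups correlated at 0.176 between same-numbered pairs. Silent regulators numbered 53 to 55 with a library left out. Expressed regulators numbered 5 at a level of 5 CPM and 7 at 1 TPM, against 11. With 10 counts as the limit, 20, 23, 22 and 22 regulators were found in control 1, control 2, mutant 1 and mutant 2.

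Of 142 alternative values for 16 named regulators, 125 kept direction and side of the threshold, 4 newly passed (all *Gata6*) and 13 changed sign. With a library left out, the log2 fold change ran from -0.44 to 0.0533 for *Tbx4*, from -0.61 to 0.92 for *Hoxd13*, from -0.72 to 0.008 for *Hoxa7*, from -0.56 to 0.13 for *Gata1*, from -0.84 to 1.26 for *Pax3* and from -0.91 to 2.66 for *Hoxa13*. It ran from -0.17 to 0.55 for *Tle6*, from -0.55 to 0.14 for *Tle4* and from -0.40 to 0.0853 for the endothelial marker *Tek*. *Pax3* was at 0.19 with limma trend and 0.17 with the replicate block. *Hoxa13* was at 0.71 with limma trend, 0.67 with the replicate block and 0.0009 with RSEM counts. The cause was not tested. Of the 112 regulators 21 passed the filter on low counts, and the effect of depth on this was not tested. The granulosa marker *Cyp19a1* passed with DESeq2 (adjusted p = 0.0126), no filter (0.0428) and the replicate block (0.0411), and *Gja1* with the replicate block (0.00533).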
